A study of Arabidopsis thaliana with 12 samples.

Results

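Heat shock proteins are the molecular chaperones that keep other proteins folded, and 35 Arabidopsis thaliana genes that encode them are described here, out of 32833 gene entries in a read count table. The genes were chosen as members of the small HSP, HSP70, HSP90 and HSP101 families. They comprise 10 cytosolic small HSPs, 6 small HSPs of organelles, 12 large chaperones of the cytosol (HSP101, 7 HSP70 genes and 4 HSP90 genes) and 7 large chaperones of organelles (4 HSP70 genes and 3 HSP90 genes). RNA came from dissected mature seeds in 4 groups of 3 biological replicates: mutant seed coat, Col-0 seed coat, mutant embryo and Col-0 embryo. The mutant is the double mutant Atsdr4l-5 dig2, and Col-0 is its wild type. All seeds were harvested about 18 days after pollination from plants grown in 16 h of light at 23 C and 8 h of dark at 18 C, stored for 2 days, and imbibed for 1 to 2 h before dissection. The seed coat samples carry the endosperm. The labels do not say what lesion each allele carries, neither mutated gene is named in the annotation used here, and their own transcript levels are not reported.

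Small HSPs form oligomers that hold unfolding proteins in a soluble state without using ATP. HSP70 and HSP90 bind and refold clients in cycles driven by ATP, and HSP101 pulls proteins out of aggregates so that they can refold. These genes are best known for their induction by heat, through heat shock transcription factors (HSFs) that bind heat shock elements in promoters. In seeds, several small HSPs and HSP101 are also made without heat during maturation, as the embryo dries, and HSFA9 is a seed-specific HSF known to act downstream of the maturation regulator ABI3. Imbibition and germination normally bring their decline.

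Gene reads per library ranged between 10301817 and 17619031 over the 12 libraries, and a filter on low counts left 16238 genes to test. Of the members 34 passed that filter. HSP70T-1 (AT1G56410), a cytosolic HSP70, did not: it had 1, 1 and 3 reads in the mutant seed coat, 0 in each Col-0 seed coat library, 1, 0 and 2 in the mutant embryo, and 0, 0 and 3 in the Col-0 embryo. Levels are given as CPM, reads scaled to library size with TMM factors, a scaling that corrects for differences in RNA composition, and changes as log2 fold change ± SE from edgeR's quasi-likelihood F test. The words rose and fell are kept for genes whose p, adjusted over all 16238 genes, was under 0.05. The tissue labels were checked against markers. EPR1, an endosperm gene, took 13.5% to 15.3% of gene reads in seed coat libraries and at most 0.0255% in embryo libraries. The 12 seed coat markers summed to 50.5 to 69.5 CPM in the mutant seed coat, 37.2 to 45.7 in the Col-0 seed coat, 6.83 to 9.50 in the mutant embryo and 8.83 to 10.7 in the Col-0 embryo. The embryo genes PLT1, PLT2 and STM were at or near 0 in the seed coat, and WOX5 had no read in any library, but the 11 embryo markers together summed to 137 to 154 CPM in the mutant seed coat, 175 to 194 in the Col-0 seed coat, 100 to 109 in the mutant embryo and 101 to 114 in the Col-0 embryo, with ATML1 and WOX2 the highest. These are whole-tissue samples, in which fewer cells of a type and less RNA per cell cannot be told apart.

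Because heat shock elements are the best known promoter feature of these families, the 500 bases before each start codon were searched on RefSeq's TAIR10.1 assembly for the element's paired units, GAANNTTC and TTCNNGAA, each of which is its own reverse complement. A pair was found for 29 of 35 members, or 82.9%, against 33.9% of 27443 protein-coding genes. All 10 cytosolic small HSPs and all 6 organelle small HSPs held one, as did 13 of 19 large chaperones (68.4%). A longer element of 3 alternating units, whose pairs overlap the ones above, stood before 11 members (31.4%) and 1.2% of all genes. The 6 members with no pair in that window were HSP70T-2, mtHSC70-1, HSP90.2, HSP90.3, HSP90.4 and HSP90.7. In only the 250 bases before the annotated transcript start, a pair stood in 7 of 35 members (20%) and in 16.1% of all genes, since most of these pairs lie after the annotated start. The ABA response core ACGTG was in the 500-base window of 16 members (45.7%) and of 34.9% of all genes, and the RY core CATGCA in 4 members (11.4%) and 14.3%. A match is only a stretch of letters, and no binding was measured.

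The sites below belong to the genes on which the results turn. The capitals mark the heat shock element units, with 5 bases on each side, on the strand of the gene. The first 7 lines give a single site each for 7 of the 8 genes whose response to the mutation differed between seed coat and embryo. The remaining gene, HSP70T-2, has no pair in the window. HSP17.6C-CI, HSP17.6B-CI, HSP70-3 and HSP90.1, and HSP26.5 of the next list, hold further sites that are not printed.
HSP17.6C-CI: caccaGAAACTTCTTGAAagcac
HSP17.8-CI: gtaaaTTCTAGAAgctct
HSP17.6B-CI: tcctaGAATTTTCtggat
HSP70-3: gaaccGAACATTCTCGAAccttt
HSP70-4: ctcgtGAACGTTCTCGAAagctc
HSP90.1: gaaaaGAACTTTCTGGAAttcgt
HSP90.5: tcttcTTCTAGAAacctc
They lie at chr1:19980241-19980263 (plus strand), chr1:2274989-2275006 (plus), chr2:12633926-12633943 (minus), chr3:2905897-2905919 (minus), chr3:3993849-3993871 (minus), chr5:21352257-21352279 (plus) and chr2:1281828-1281845 (plus), in that order. The printed site of HSP17.6C-CI ends 251 bases before its start codon and that of HSP90.1 ends 282 bases before its own. Of these 7, only those 2 lie before the annotated transcript start, and the others lie in the annotated 5′ leader.

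The next sites allow a comparison between neighbours. The tandem class II genes HSP17.6-CII and HSP17.7-CII carry the same pair and differ in the bases after it, while HSP23.5 and HSP26.5, higher in both tissues of the mutant, hold pairs of their own.
HSP17.6-CII: gacgtTTCTCGAAcaata
HSP17.7-CII: gacgtTTCTCGAAcgtta
HSP23.5: cgcagTTCTAGAAccatc
HSP26.5: tcttaGAAACTTCtaaca
These are at chr5:3883041-3883058 (minus), chr5:3884848-3884865 (minus), chr5:20891064-20891081 (plus) and chr1:19575902-19575919 (minus). HSP17.4-CI, one of the most abundant members, holds 2 elements of 3 units, which end 220 and 139 bases before its start codon. Its 250 bases before the annotated start (chr3:16984868-16985117, minus strand) also carry ACGTG, with the 3-unit elements in capitals.
HSP17.4-CI promoter: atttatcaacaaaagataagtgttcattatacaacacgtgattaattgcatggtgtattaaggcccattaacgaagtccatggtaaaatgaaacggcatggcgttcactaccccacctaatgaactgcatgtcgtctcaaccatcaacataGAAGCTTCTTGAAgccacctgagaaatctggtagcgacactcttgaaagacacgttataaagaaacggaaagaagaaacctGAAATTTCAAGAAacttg

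The members took up 1.53% ± 0.0606 of gene reads in the mutant seed coat, 1.78% ± 0.186 in the Col-0 seed coat, 2.88% ± 0.0427 in the mutant embryo and 2.25% ± 0.162 in the Col-0 embryo (SD, n = 3 each). The mutant embryo therefore held the highest share and the mutant seed coat the lowest. As summed CPM, the members came to 19794 ± 1677 in the mutant seed coat, 18791 ± 2022 in the Col-0 seed coat, 27936 ± 1437 in the mutant embryo and 17155 ± 1610 in the Col-0 embryo. The order of the seed coat groups by share is the reverse of their order by CPM, because TMM factors were 0.749 to 0.820 in the mutant seed coat, 0.919 to 1.00 in the Col-0 seed coat, 1.00 to 1.08 in the mutant embryo and 1.27 to 1.39 in the Col-0 embryo. Cytosolic small HSPs summed to 8449 ± 560 CPM in the mutant seed coat, 7507 ± 686 in the Col-0 seed coat, 13122 ± 777 in the mutant embryo and 8331 ± 529 in the Col-0 embryo. Large chaperones of the cytosol were close to that level, at 9536 ± 1028, 9636 ± 1196, 12211 ± 611 and 7106 ± 1103 CPM in the same groups. Organelle forms were scarcer. Organelle small HSPs summed to 1011 ± 111 CPM in the mutant seed coat, 700 ± 98.9 in the Col-0 seed coat, 1567 ± 191 in the mutant embryo and 771 ± 65.8 in the Col-0 embryo, and organelle large chaperones to 798 ± 37.7, 948 ± 70.1, 1035 ± 42.6 and 947 ± 59.3 CPM.

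**Figure D1:**
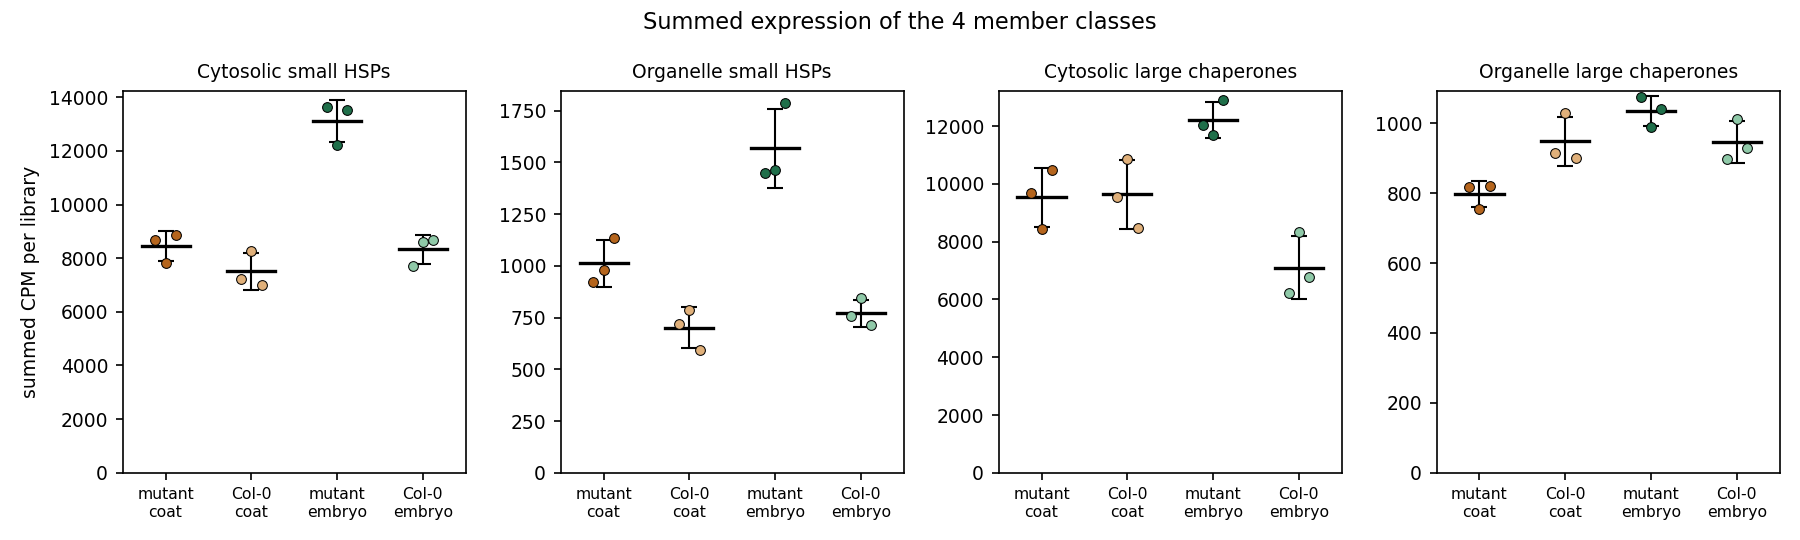
Summed CPM of the 4 classes in each library (points) with the mean ± SD of each group, mutant seed coat, Col-0 seed coat, mutant embryo and Col-0 embryo. The mutant embryo libraries are above the other groups for both cytosolic classes and for organelle small HSPs, at 12227 to 13627 CPM for cytosolic small HSPs against 7722 to 8663 CPM in the Col-0 embryo.

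Per transcript length (RPKM), HSP17.7-CII (AT5G12030) was the most abundant member in every group, at 4880 ± 441 RPKM in the mutant seed coat, 4340 ± 359 in the Col-0 seed coat, 8186 ± 725 in the mutant embryo and 5638 ± 206 in the Col-0 embryo. HSP17.4-CI (AT3G46230) came next in every group, with 4709 ± 258, 3762 ± 469, 6521 ± 294 and 3757 ± 407 RPKM. In the mutant seed coat these neighbours did not differ beyond their spread. HSP70B (AT1G16030), HSP70-4 (AT3G12580) and HSP90.1 (AT5G52640), the heat-inducible large chaperones, filled the ranks 3 to 5 in all 4 groups, at 478 to 1682 RPKM. These 5 genes made up 72.8% of the members' summed CPM in the mutant seed coat, 69.1% in the Col-0 seed coat, 75.4% in the mutant embryo and 70.7% in the Col-0 embryo. HSP18.2-CI (AT5G59720), often used as a heat reporter gene, ranked near the bottom, at 0.880 ± 0.355 RPKM in the mutant seed coat, 2.04 ± 0.116 in the Col-0 seed coat, 0.794 ± 0.339 in the mutant embryo and 1.56 ± 0.384 in the Col-0 embryo. Its coding sequence is 77% identical to that of HSP17.4-CI.

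**Figure D2:**
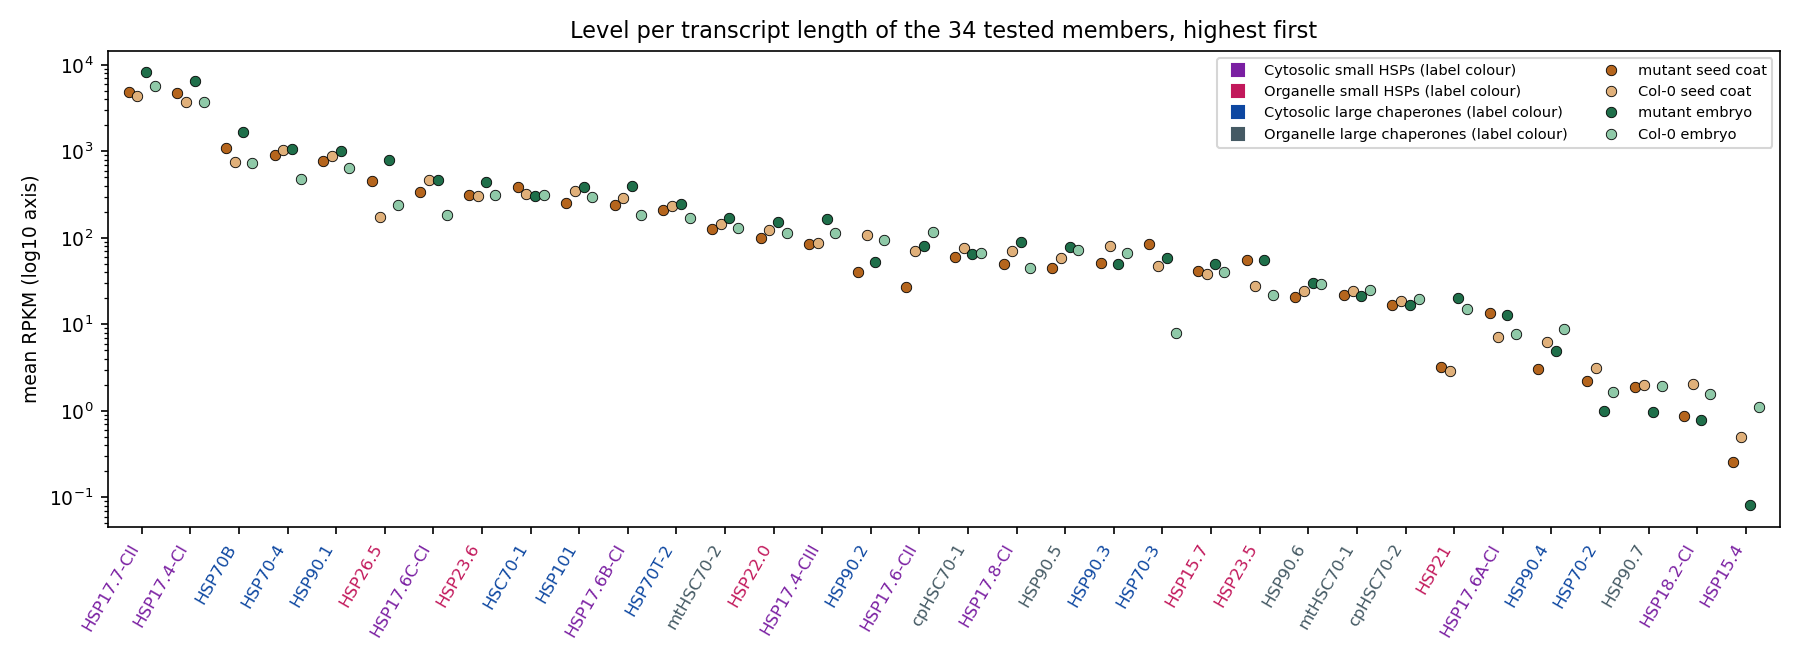
Mean RPKM of the 34 tested members on a log10 axis, ordered by their summed level, with 1 point per group (n = 3 libraries each) and gene labels coloured by class. HSP17.7-CII and HSP17.4-CI lead in all 4 groups, and HSP18.2-CI and HSP15.4 are among the lowest.

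The first question the design poses is what the mutation did to these transcripts in each tissue. In the seed coat 5 members rose, 8 fell and 21 were not called, beside 24.8% of all tested genes higher and 23.5% lower. In the embryo 16 rose, 6 fell and 12 were not called, beside 25.4% of all genes higher and 21.4% lower. The median log2 change of the 34 members was -0.18 in the seed coat and 0.39 in the embryo, where all genes had medians of -0.00 and 0.00. By these shares, 16 of 34 higher in the embryo exceeds the background share, and the counts in the seed coat lie near or below it. Mutant and Col-0 libraries had no overlap in CPM for 16 of 34 members in the seed coat (55.5% of all genes) and for 21 of 34 in the embryo (57.3%). Scaled by total reads only, which shifts the median of all genes to -0.30 in the seed coat and -0.35 in the embryo, 3 rose and 21 fell in the seed coat (14.9% and 38.1% of all genes) and 9 rose and 13 fell in the embryo (14.1% and 42.4%). Every change here is therefore relative to the bulk of genes. Without the Col-0 embryo library numbered 2, the count lower in the embryo was 3 in place of 6. The tissue markers moved with the genotypes too. Of 4 tested endosperm markers, 3 rose and 0 fell in the mutant seed coat and 2 rose and 0 fell in the mutant embryo, and all 9 together summed to 184360 to 202246 CPM in the mutant seed coat against 134907 to 164683 in the Col-0 seed coat, and to 148 to 261 CPM in the mutant embryo against 177 to 202 in the Col-0 embryo. Of 6 tested seed coat markers, 3 rose and 0 fell in the seed coat and 0 rose and 1 fell in the embryo. Of 8 tested embryo markers, 0 rose and 4 fell in the seed coat and 2 rose and 4 fell in the embryo. Their part in the results was not tested.

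Across tissues, 5 members rose in both (HSP17.6A-CI, HSP23.5, HSP26.5, HSP70-3 and HSP70B) and 5 fell in both (HSP18.2-CI, HSP17.6-CII, HSP90.2, HSP90.3 and HSP90.4). HSP17.6C-CI was the 1 member that fell in the seed coat and rose in the embryo. A further 10 were called higher in the embryo alone and 1 lower in the embryo alone (HSP90.7), 2 were called lower in the seed coat alone (cpHSC70-1 and HSP90.5), and 10 were called in neither. Counts by class differed. Of 10 cytosolic small HSPs, 1 rose and 3 fell in the seed coat, and 7 rose and 2 fell in the embryo. Of 6 organelle small HSPs, 2 rose and 0 fell in the seed coat, and 3 rose and 0 fell in the embryo. Of 11 tested large chaperones of the cytosol, 2 rose and 3 fell in the seed coat, and 5 rose and 3 fell in the embryo. Of 7 organelle large chaperones, 0 rose and 2 fell in the seed coat, and 1 rose and 1 fell in the embryo. The class medians in the seed coat were -0.36, 0.13, -0.20 and -0.17 in that order, and with total reads only -0.65, -0.17, -0.50 and -0.46, so that the sign for organelle small HSPs depended on the scaling. In the embryo they were 0.65, 0.46, 0.38 and -0.04, and with total reads only 0.30, 0.11, 0.03 and -0.39.

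**Figure D3:**
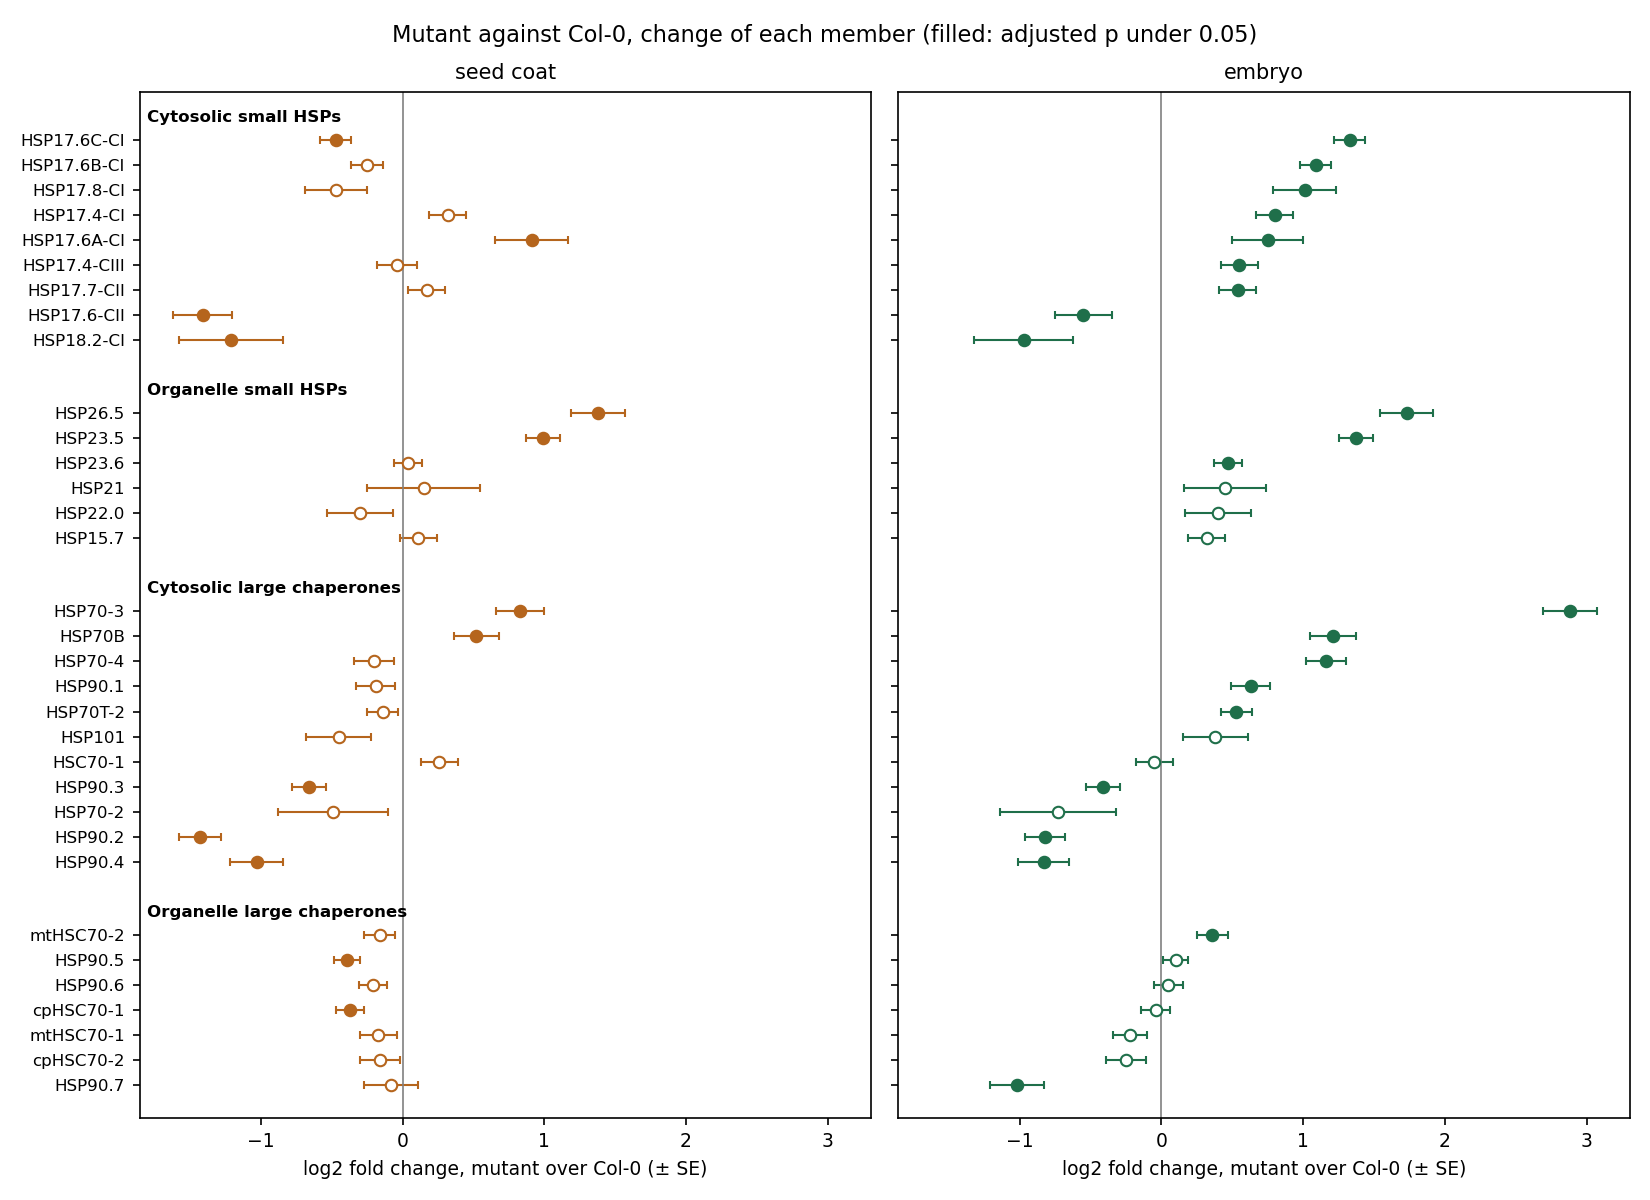
log2 fold change ± SE of mutant over Col-0 for each member, in the seed coat (left) and the embryo (right), grouped by class and ordered by the embryo value, with filled points where the adjusted p was under 0.05. HSP15.4, with reads in few libraries, is left out. Cytosolic small HSPs and cytosolic HSP70 genes lie mostly right of 0 in the embryo, and HSP90.2, HSP90.3 and HSP90.4 lie left of 0 in both tissues.

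Class I small HSPs are the main cytosolic holdases of plants. HSP17.6C-CI (AT1G53540) had 296, 312 and 313 CPM in the mutant seed coat, against 431, 469 and 373 in the Col-0 seed coat, and 395, 420 and 442 in the mutant embryo, against 148, 171 and 180 in the Col-0 embryo. The genotypes did not overlap in either tissue, and they lay in opposite orders. It fell by 0.47 ± 0.11 on the log2 scale in the seed coat (adjusted p = 0.00301) and rose by 1.33 ± 0.11 in the embryo (adjusted p = 1.2e-06). HSP17.6B-CI (AT2G29500) had 241, 265 and 257 CPM in the mutant seed coat, against 314, 329 and 265 in the Col-0 seed coat, and 400, 396 and 460 in the mutant embryo, against 191, 217 and 181 in the Col-0 embryo. It was not called in the seed coat (log2 -0.25 ± 0.11, adjusted p = 0.0750) and rose by 1.09 ± 0.11 in the embryo (adjusted p = 7.1e-06). HSP17.8-CI (AT1G07400) had the same outline at a lower level, with 38.3, 42.1 and 49.5 CPM in the mutant seed coat, against 57.1, 72.0 and 51.1 in the Col-0 seed coat, and 69.6, 79.3 and 83.4 in the mutant embryo, against 23.2, 45.2 and 47.3 in the Col-0 embryo. Its replicates did not overlap in either tissue, with log2 -0.47 ± 0.22 in the seed coat, which was not called, and 1.01 ± 0.22 in the embryo (adjusted p = 0.00268).

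The abundant HSP17.4-CI had 3491, 3195 and 3541 CPM in the mutant seed coat, against 2411, 3085 and 2674 in the Col-0 seed coat, and 4697, 4522 and 4945 in the mutant embryo, against 2388, 2819 and 2953 in the Col-0 embryo. All mutant libraries were above all Col-0 libraries of their tissue. Its log2 0.32 ± 0.13 in the seed coat missed the threshold (adjusted p = 0.0552), which it passed with DESeq2 (log2 0.31, adjusted p = 0.0250) and with counts taken without regard to strand (log2 0.86, adjusted p = 0.0121). It rose by 0.80 ± 0.13 in the embryo (adjusted p = 0.000314). Genes on the opposite strand overlap HSP17.4-CI, so counts without regard to strand need not hold the same reads. The value of 0.86 is therefore not a like comparison with 0.32. HSP17.6A-CI (AT1G59860) was rarer, with 12.3 ± 1.68 CPM in the mutant seed coat and 6.54 ± 0.243 in the Col-0 seed coat, and 11.8 ± 4.09 in the mutant embryo and 6.97 ± 2.17 in the Col-0 embryo. It rose in the seed coat (log2 0.91 ± 0.26, adjusted p = 0.0113) and in the embryo (log2 0.75 ± 0.25, adjusted p = 0.0244), and the embryo call was lost without the mutant library numbered 2 or the Col-0 libraries numbered 2 or 3. HSP18.2-CI went the other way. It had 0.578, 1.25 and 0.755 CPM in the mutant seed coat, against 2.00, 2.11 and 1.89 in the Col-0 seed coat, and 0.728, 1.13 and 0.472 in the mutant embryo, against 1.10, 1.83 and 1.63 in the Col-0 embryo. It fell by 1.21 ± 0.37 in the seed coat (adjusted p = 0.0171) and by 0.97 ± 0.35 in the embryo (adjusted p = 0.0378), calls lost without mutant seed coat library 1 or 3 and without any of 6 libraries (mutant embryo 1 or 3, Col-0 embryo 2 or 3, Col-0 seed coat 1 or 3).

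Class II small HSPs form their own cytosolic oligomers. Their 2 genes lie in tandem on the minus strand at chr5:3882231-3884838, with coding sequences 86.1% identical, and no 100-base window of either transcript recurs elsewhere. HSP17.7-CII had 4490, 3857 and 4565 CPM in the mutant seed coat, against 3861, 4127 and 3496 in the Col-0 seed coat, and 7815, 6544 and 7300 in the mutant embryo, against 4763, 5073 and 5082 in the Col-0 embryo. The seed coat groups overlapped (log2 0.17 ± 0.13, adjusted p = 0.298), and it rose by 0.54 ± 0.13 in the embryo (adjusted p = 0.00431). HSP17.6-CII (AT5G12020) had 18.8, 27.5 and 24.4 CPM in the mutant seed coat, against 55.8, 79.7 and 52.7 in the Col-0 seed coat, and 62.0, 69.6 and 79.3 in the mutant embryo, against 81.6, 132 and 95.1 in the Col-0 embryo. It fell by 1.41 ± 0.21 in the seed coat (adjusted p = 0.000145) and by 0.55 ± 0.20 in the embryo (adjusted p = 0.0396), and the embryo call was lost without mutant embryo library 1 or 2 or Col-0 embryo library 2 or 3. The neighbours were thus called in opposite directions in the embryo. Whether their changes differ was not tested.

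Of the other small HSPs of the cytosol, HSP17.4-CIII (AT1G54050), the single class III gene, had 93.9 ± 7.37 CPM in the mutant seed coat and 96.7 ± 18.2 in the Col-0 seed coat, and 183 ± 10.1 in the mutant embryo and 125 ± 17.7 in the Col-0 embryo. It was not called in the seed coat (log2 -0.04 ± 0.14, adjusted p = 0.818) and rose in the embryo (log2 0.55 ± 0.13, adjusted p = 0.00518). HSP15.4 (AT4G21870) had 0, 9 and 0 reads in the mutant seed coat and 22, 1 and 0 in the Col-0 seed coat, and 0, 2 and 2 in the mutant embryo and 57, 11 and 2 in the Col-0 embryo. It passed the filter through a few libraries, and its groups overlap in both tissues (adjusted p = 0.588 in the seed coat and 0.0617 in the embryo).

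Among organelle small HSPs, HSP26.5 and HSP23.5 moved most. HSP26.5 (AT1G52560), classed as mitochondrial, had 447, 449 and 536 CPM in the mutant seed coat, against 199, 208 and 144 in the Col-0 seed coat, and 787, 735 and 959 in the mutant embryo, against 272, 291 and 186 in the Col-0 embryo. Every mutant library was above every Col-0 library, and it rose by 1.38 ± 0.19 in the seed coat (adjusted p = 6.7e-05) and by 1.73 ± 0.19 in the embryo (adjusted p = 1.2e-05). HSP23.5 (AT5G51440), a mitochondrial form, had 55.1, 63.6 and 66.9 CPM in the mutant seed coat, against 30.0, 33.9 and 29.9 in the Col-0 seed coat, and 53.3, 63.2 and 71.4 in the mutant embryo, against 26.3, 23.7 and 22.8 in the Col-0 embryo. It rose by 0.99 ± 0.12 in the seed coat (adjusted p = 3.0e-05) and by 1.37 ± 0.12 in the embryo (adjusted p = 2.2e-06). Its paralog HSP23.6 (AT4G25200), 71.1% identical in coding sequence, was more abundant and moved less, with 331 ± 35.9 CPM in the mutant seed coat and 323 ± 29.7 in the Col-0 seed coat (log2 0.04 ± 0.10, adjusted p = 0.793), and 459 ± 30.0 in the mutant embryo and 330 ± 10.7 in the Col-0 embryo (log2 0.47 ± 0.10, adjusted p = 0.00248).

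The other organelle small HSPs were not called between genotypes. HSP21 (AT4G27670) of the chloroplast had 3.16 ± 1.57 CPM in the mutant seed coat and 2.85 ± 1.15 in the Col-0 seed coat (adjusted p = 0.787), and 20.1 ± 4.66 in the mutant embryo and 14.7 ± 3.33 in the Col-0 embryo (adjusted p = 0.236). HSP22.0 (AT4G10250) of the endoplasmic reticulum had log2 -0.30 ± 0.23 in the seed coat (adjusted p = 0.293) and 0.40 ± 0.23 in the embryo (adjusted p = 0.167). HSP15.7 (AT5G37670) of the peroxisome had 41.8 ± 4.50 CPM in the mutant embryo and 33.6 ± 3.74 in the Col-0 embryo, with no overlap, and a log2 change of 0.32 ± 0.13 that missed the threshold (adjusted p = 0.0549).

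Of the large chaperones, HSP101 (AT1G74310), the disaggregase needed for acquired heat tolerance, was not called in either tissue. It had 864, 724 and 973 CPM in the mutant seed coat, against 1025, 1564 and 914 in the Col-0 seed coat, and 1239, 1199 and 1436 in the mutant embryo, against 721, 1330 and 937 in the Col-0 embryo. In both tissues the Col-0 library numbered 2 was the highest of its group and the groups overlapped, with log2 -0.45 ± 0.23 in the seed coat (adjusted p = 0.125) and 0.38 ± 0.23 in the embryo (adjusted p = 0.203).

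Of 6 tested cytosolic HSP70 genes, 2 rose and 0 fell in the seed coat, and 4 rose and 0 fell in the embryo. HSP70-3 (AT3G09440), a cytosolic HSP70, had the highest log2 change of the 34 members. It had 263, 316 and 233 CPM in the mutant seed coat, against 151, 170 and 136 in the Col-0 seed coat, and 165, 237 and 165 in the mutant embryo, against 20.4, 29.1 and 27.8 in the Col-0 embryo. It rose by 0.83 ± 0.17 in the seed coat (adjusted p = 0.00184) and by 2.88 ± 0.19 in the embryo (adjusted p = 2.2e-07). Annotated genes overlap HSP70-3 on the same strand and on the opposite one, so that some of its reads may be uncertain. HSP70B, a heat-induced HSP70, had 2851, 2332 and 3189 CPM in the mutant seed coat, against 1953, 2168 and 1733 in the Col-0 seed coat, and 4171, 3981 and 4819 in the mutant embryo, against 1589, 2235 and 1800 in the Col-0 embryo. It rose by 0.52 ± 0.16 in the seed coat (adjusted p = 0.0189) and by 1.21 ± 0.16 in the embryo (adjusted p = 7.5e-05), and the seed coat call was lost without mutant seed coat library 1 or 3 or Col-0 seed coat library 3.

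HSP70-4 had 2313, 2093 and 2463 CPM in the mutant seed coat, against 2556, 3072 and 2282 in the Col-0 seed coat, and 2730, 2617 and 2720 in the mutant embryo, against 1131, 1403 and 1079 in the Col-0 embryo. The Col-0 embryo stood apart from the other groups. HSP70-4 was not called in the seed coat (log2 -0.20 ± 0.14, adjusted p = 0.248) and rose by 1.16 ± 0.14 in the embryo (adjusted p = 3.1e-05). HSP70T-2 (AT2G32120), a truncated form, was not called in the seed coat (460 ± 43.1 CPM in the mutant and 508 ± 36.7 in Col-0, log2 -0.14 ± 0.11, adjusted p = 0.316) and rose in the embryo (534 ± 35.8 CPM in the mutant and 371 ± 41.5 in Col-0, log2 0.53 ± 0.11, adjusted p = 0.00209). HSC70-1 (AT5G02500), the constitutive housekeeping HSP70, was not called in either tissue, at 996 ± 88.1 CPM in the mutant seed coat and 830 ± 97.7 in the Col-0 seed coat (adjusted p = 0.119), and 774 ± 118 in the mutant embryo and 803 ± 58.7 in the Col-0 embryo (adjusted p = 0.768). Its tandem neighbour HSP70-2 (AT5G02490), 86.9% identical in coding sequence, reached at most 10.5 CPM in any library.

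The cytosolic HSP90 genes split. HSP90.1, the heat-inducible gene, had 1668, 1398 and 1770 CPM in the mutant seed coat, against 1937, 1948 and 1647 in the Col-0 seed coat, and 2115, 1959 and 2261 in the mutant embryo, against 1206, 1580 and 1304 in the Col-0 embryo. It was not called in the seed coat (log2 -0.19 ± 0.14, adjusted p = 0.259) and rose by 0.63 ± 0.14 in the embryo (adjusted p = 0.00223). The constitutive genes HSP90.2 (AT5G56030), HSP90.3 (AT5G56010) and HSP90.4 (AT5G56000) all fell in both tissues. HSP90.2 had 110, 116 and 122 CPM in the mutant seed coat, against 296, 358 and 281 in the Col-0 seed coat, and 140, 172 and 144 in the mutant embryo, against 215, 318 and 274 in the Col-0 embryo. It fell by 1.43 ± 0.15 in the seed coat (adjusted p = 7.4e-06) and by 0.82 ± 0.14 in the embryo (adjusted p = 0.000532).

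HSP90.3 fell by 0.66 ± 0.12 in the seed coat (adjusted p = 0.000774) and by 0.41 ± 0.12 in the embryo (adjusted p = 0.0158), and the embryo call was lost without mutant embryo library 3 or Col-0 embryo library 2. HSP90.4, the rarest of the cluster, had 7.44 ± 0.436 CPM in the mutant seed coat and 15.3 ± 1.19 in the Col-0 seed coat, and 12.1 ± 1.76 in the mutant embryo and 21.4 ± 5.65 in the Col-0 embryo, and it fell in both (adjusted p = 0.000732 and 0.00207). These 3 genes lie side by side at chr5:22677338-22689671, and 7.72% of 100-base windows of HSP90.2, 11.7% of HSP90.3 and 5.86% of HSP90.4 recur elsewhere, so reads may be shared or lost among them and the split between them is uncertain. They are also 3 of the 6 members with no heat shock element pair before the start codon. Among the others without a pair, HSP70T-2 rose and HSP90.7 fell in the embryo, and mtHSC70-1 was called in neither tissue. HSP18.2-CI and HSP17.6-CII, which also fell in both tissues, hold a pair. A link between the motif and the changes was not tested.

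Of the organelle large chaperones, 4 were called in 1 tissue each. The mitochondrial mtHSC70-2 (AT5G09590) rose in the embryo (433 ± 34.2 CPM in the mutant and 337 ± 28.2 in Col-0, log2 0.36 ± 0.11, adjusted p = 0.0163), a call lost without mutant embryo library 1 or Col-0 embryo library 1 or 3. It shares 14.6% of its 100-base windows with other sequence. In the seed coat the chloroplast forms cpHSC70-1 (AT4G24280) and HSP90.5 (AT2G04030) fell. cpHSC70-1 had 168 ± 12.1 CPM in the mutant and 217 ± 14.8 in Col-0 (log2 -0.37 ± 0.10, adjusted p = 0.00669), and HSP90.5 had 126 ± 6.90 CPM in the mutant and 166 ± 13.8 in Col-0 (log2 -0.39 ± 0.09, adjusted p = 0.00289). HSP90.7 (AT4G24190), the HSP90 of the endoplasmic reticulum, had 5.30, 5.89 and 6.21 CPM in the mutant seed coat, against 6.87, 6.49 and 4.92 in the Col-0 seed coat, and 2.41, 3.72 and 2.60 in the mutant embryo, against 6.57, 5.60 and 5.47 in the Col-0 embryo. Only its mutant embryo libraries stood apart, and it fell by 1.02 ± 0.19 in the embryo (adjusted p = 0.000841). The mitochondrial mtHSC70-1 (AT4G37910) and HSP90.6 (AT3G07770) and the chloroplast cpHSC70-2 (AT5G49910) were called in neither tissue.

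The next question is whether the difference between mutant and Col-0, the mutant effect, was the same in seed coat and embryo. The mutant effect was lower in the seed coat than in the embryo for 8 of 34 members and higher for 0, beside 3.72% of all genes lower and 2.02% higher. The 8 were 3 class I small HSPs, 3 cytosolic HSP70 genes, HSP90.1 and HSP90.5, and no organelle small HSP was among them. The largest was HSP70-3, with a difference of -2.05 ± 0.25 (adjusted p = 0.000719), followed by HSP17.6C-CI with -1.80 ± 0.15 (adjusted p = 4.5e-05). HSP17.8-CI had -1.48 ± 0.32 (adjusted p = 0.0174), HSP70-4 -1.36 ± 0.20 (adjusted p = 0.00235) and HSP17.6B-CI -1.34 ± 0.15 (adjusted p = 0.000410). HSP90.1 had -0.83 ± 0.19 (adjusted p = 0.0256), HSP70T-2 -0.67 ± 0.16 (adjusted p = 0.0286) and HSP90.5 -0.49 ± 0.13 (adjusted p = 0.0391). The count was 4 without mutant seed coat library 1 and 5 without any one of mutant seed coat libraries 2 or 3, mutant embryo libraries 1 or 3, Col-0 seed coat library 2 or Col-0 embryo library 1. The calls for HSP70T-2, HSP90.1 and HSP90.5 were each lost in 8, 9 and 10 of 12 such fits, in that order, and that for HSP17.8-CI in 1.

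Seed coat and embryo libraries of one number deviated together within each genotype. With that number as a block, the difference was lower for 21 members, higher for 1 (HSP90.7, log2 0.95, adjusted p = 0.0183) and not called for 12, beside 10.7% of all genes lower and 5.14% higher. By class the blocked fit called 7 of 10 cytosolic small HSPs lower, 4 of 6 organelle small HSPs, 7 of 11 cytosolic large chaperones and 3 of 7 organelle large chaperones. Members it added include HSP101 (log2 -0.84, adjusted p = 0.000428), HSP17.6-CII (log2 -0.88, adjusted p = 0.000283) and HSP70B (log2 -0.71, adjusted p = 0.00108). It kept the calls for HSP70T-2, HSP90.1 and HSP90.5 (adjusted p = 0.000343, 0.000220 and 0.00360), which many fits with 1 library left out had lost. The median difference over the 34 members was -0.41 without the block, where all genes had a median of -0.04. It was -0.53 for cytosolic small HSPs, -0.37 for organelle small HSPs, -0.67 for cytosolic large chaperones and -0.27 for organelle large chaperones.

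**Figure D4:**
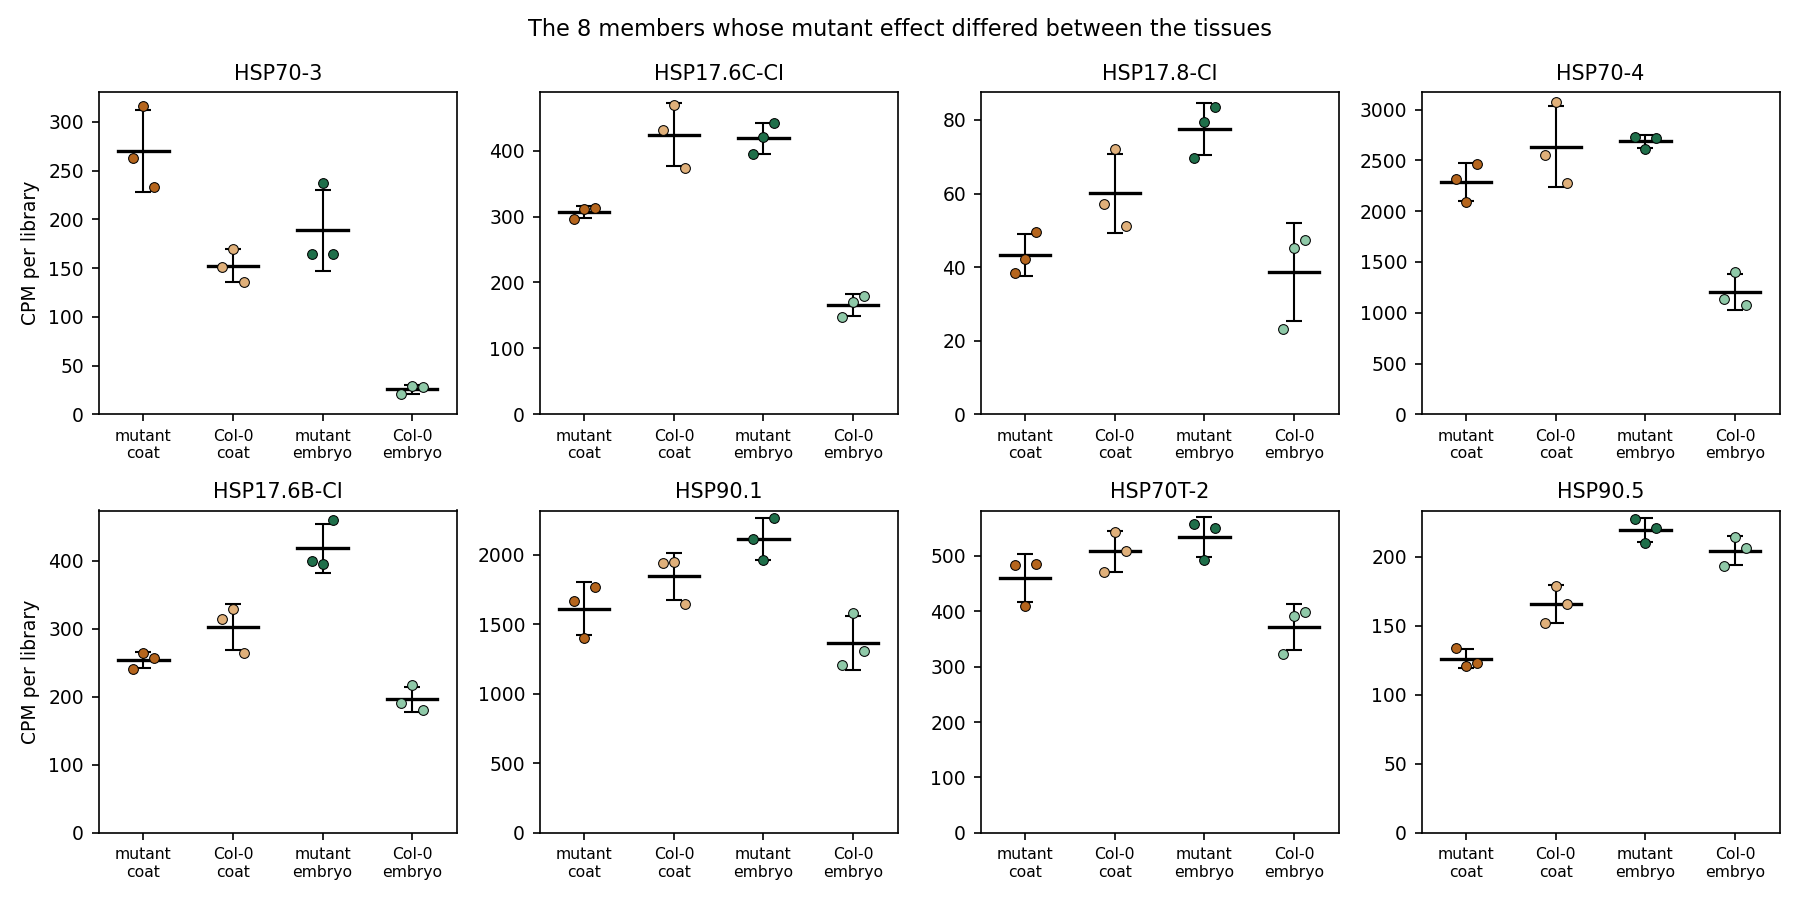
CPM in each library (points) with mean ± SD for the 8 members whose mutant effect differed between the tissues, by group in the order mutant seed coat, Col-0 seed coat, mutant embryo, Col-0 embryo. In HSP70-3, HSP70-4 and HSP17.6C-CI the Col-0 embryo is the lowest group, at 20.4 to 29.1, 1079 to 1403 and 148 to 180 CPM.

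The remaining comparison is between tissues within a genotype. In the mutant 4 members were higher in the seed coat than in the embryo, 16 were lower and 14 were not called, beside 16.9% of all genes higher and 18.0% lower. In Col-0 8 were higher, 7 lower and 19 not called, beside 24.4% of all genes higher and 22.2% lower. The median change was -0.39 in the mutant and 0.06 in Col-0. Replicates of the tissues did not overlap for 24 of 34 members in the mutant (48.1% of all genes) and for 16 in Col-0 (55.7%). With the replicate number as a block, 4 were higher and 22 lower in the mutant (23.2% and 22.4% of all genes), and 13 higher and 8 lower in Col-0 (30.4% and 26.4%). Scaled by total reads only, 1 was higher and 27 lower in the mutant (7.90% and 50.3%), and 3 higher and 17 lower in Col-0 (10.1% and 53.0%). Fitting the compared groups alone left 2 higher in the mutant and 4 lower in Col-0. In Col-0 the count lower was 1 without embryo library 2 and 2 without seed coat library 1 or 3. In the mutant the count higher was 1 without mutant embryo library 1 or 3, and 2 without mutant seed coat library 1, 2 or 3, Col-0 embryo library 2 or Col-0 seed coat library 3. All of these comparisons share libraries with the comparisons of genotypes above.

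HSP70-3 was higher in the seed coat in both genotypes, by 0.52 ± 0.17 in the mutant (adjusted p = 0.0350), where the tissues overlapped and the call was lost without mutant embryo library 1 or 3 or mutant seed coat library 2, and by 2.57 ± 0.19 in Col-0 (adjusted p = 3.9e-07). HSP17.6C-CI was lower in the mutant seed coat than in the mutant embryo (log2 -0.45 ± 0.11, adjusted p = 0.00574) and higher in the Col-0 seed coat than in the Col-0 embryo (log2 1.35 ± 0.11, adjusted p = 9.3e-07). HSP17.6B-CI, HSP17.8-CI and HSP90.1 were likewise lower in the seed coat of the mutant (log2 -0.72, -0.84 and -0.39) and higher in that of Col-0 (log2 0.62, 0.64 and 0.44). With total reads only the Col-0 value of HSP90.1 was -0.03. The HSP90.1 call was lost in the mutant without mutant embryo library 1 or 3, any mutant seed coat library or Col-0 seed coat library 1 or 2, and in Col-0 without embryo library 1 or 3 or seed coat library 1 or 2. The Col-0 call of HSP17.8-CI was lost without embryo library 1 or seed coat library 1 or 2. The fit with the replicate number as a block kept these calls. Its adjusted p was 0.00139 and 0.000424 for HSP90.1 in the mutant and Col-0, and 0.000750 for HSP17.8-CI in Col-0. It also kept the mutant call of HSP70-3 (adjusted p = 0.000276). HSP70-4 was not called in the mutant (log2 -0.23 ± 0.14, adjusted p = 0.221), where the fit with the replicate number as a block called it lower in the seed coat (log2 -0.23, adjusted p = 0.0186), and it was higher in the Col-0 seed coat (log2 1.13 ± 0.14, adjusted p = 4.4e-05).

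Some members had the same tissue order in both genotypes. HSP21 had 1.35, 3.92 and 4.20 CPM in the mutant seed coat, against 15.1, 20.7 and 24.4 in the mutant embryo, and 2.40, 4.15 and 1.99 in the Col-0 seed coat, against 14.9, 18.0 and 11.3 in the Col-0 embryo. It was lower in the seed coat, with log2 -2.65 ± 0.35 in the mutant (adjusted p = 8.7e-05) and -2.35 ± 0.35 in Col-0 (adjusted p = 0.000171). Both class II genes were lower in the seed coat, HSP17.6-CII with log2 -1.58 in the mutant and -0.71 in Col-0, and HSP17.7-CII with -0.75 and -0.38. The chloroplast HSP90.5 (log2 -0.80 in the mutant and -0.30 in Col-0) and the mitochondrial HSP90.6 (-0.53 and -0.26) were lower too. Of these, the Col-0 calls of 4 genes were lost with single libraries left out. That of HSP90.6 (adjusted p = 0.0430) was lost without mutant embryo library 2 or 3, any Col-0 embryo library or Col-0 seed coat library 1 or 3. That of HSP90.5 was lost without Col-0 embryo library 2 or seed coat library 1, that of HSP17.6-CII without embryo library 2 or seed coat library 3, and that of HSP17.7-CII without embryo library 2 or 3 or seed coat library 1 or 3. The fit with the replicate number as a block kept these 4 Col-0 calls. Its adjusted p was 0.0107 for HSP90.6, 0.00181 for HSP90.5, 6.2e-06 for HSP17.6-CII and 0.000909 for HSP17.7-CII. HSP17.4-CIII (log2 -0.96 in the mutant and -0.37 in Col-0) and HSP90.4 (-0.69 and -0.49) were also lower in the seed coat. In Col-0 their tissues overlapped. The Col-0 call of HSP17.4-CIII was lost without embryo library 2 or seed coat library 1 or 3. That of HSP90.4 was lost without embryo library 2 or 3 or any Col-0 seed coat library. The blocked fit kept both (adjusted p = 0.000475 and 0.00469). HSP90.7 was higher in the mutant seed coat than in the mutant embryo (log2 1.00 ± 0.20, adjusted p = 0.00182) and was not called in Col-0 (log2 0.06 ± 0.18, adjusted p = 0.810). Endosperm and seed coat markers also differed between the tissues. Of 4 tested endosperm markers, 1 was higher in the seed coat and 0 lower in the mutant, and 3 were higher and 0 lower in Col-0. Of 6 tested seed coat markers, 4 were higher and 0 lower in the mutant, and 3 higher and 1 lower in Col-0. The part of these markers' tissues in the results was not tested.

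**Figure D5:**
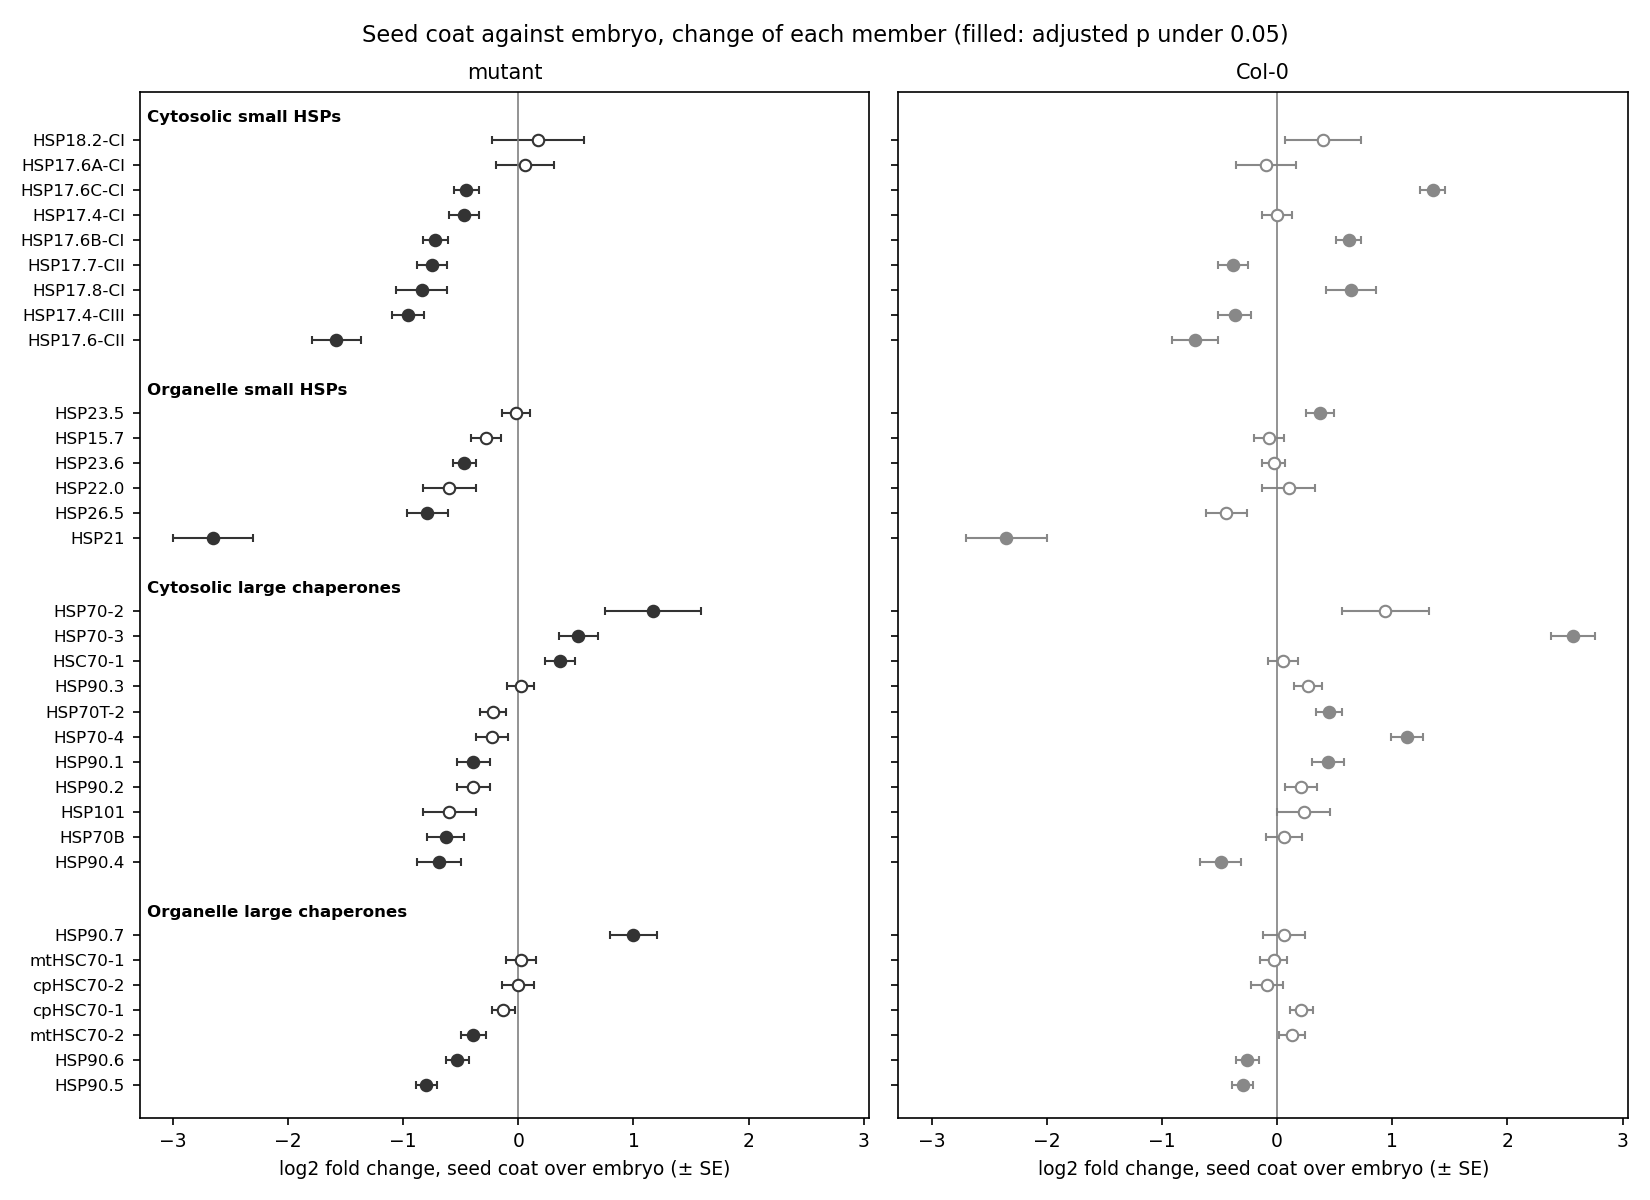
log2 fold change ± SE of seed coat over embryo for each member in the mutant (left) and in Col-0 (right), grouped by class, with filled points where the adjusted p was under 0.05. HSP15.4 is left out. HSP21 is the farthest left in both panels, and HSP70-3 is the farthest right in Col-0.

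The partners of these chaperones were described from a list of 25 further chaperones and co-chaperones, of which 24 were tested. In the seed coat 5 rose, 6 fell and 13 were not called (median log2 -0.08), beside 24.8% of all tested genes higher and 23.5% lower. In the embryo 11 rose, 3 fell and 10 were not called (median 0.25), beside 25.4% higher and 21.4% lower. BAG6, a co-chaperone of the HSP70 cycle, rose by 1.21 ± 0.20 in the seed coat (adjusted p = 0.000289) and 1.29 ± 0.20 in the embryo (adjusted p = 0.000176). P23-2, an HSP90 co-chaperone, rose by 0.54 ± 0.09 and 0.74 ± 0.08 (adjusted p = 0.000314 and 1.9e-05), and CLPB3, the chloroplast relative of HSP101, by 0.69 ± 0.15 and 1.11 ± 0.15 (adjusted p = 0.00192 and 6.0e-05), in the seed coat and the embryo. FES1A, which binds HSP70 and protects it from degradation, fell in the seed coat (log2 -0.74 ± 0.13, adjusted p = 0.000474) and rose in the embryo (log2 0.47 ± 0.13, adjusted p = 0.00967). HOP1, which links HSP70 to HSP90, fell in both tissues (log2 -0.65 in each), as did ROF2, an HSP90-binding immunophilin (log2 -1.29 and -0.75). ATJ2, a J-domain partner of HSP70, fell in the seed coat, to 81.7 ± 12.2 CPM in the mutant against 163 ± 20.3 in Col-0 (adjusted p = 0.000120). BIP1, an HSP70 of the endoplasmic reticulum, rose in the seed coat, to 59.6 ± 8.95 CPM in the mutant against 21.0 ± 4.26 in Col-0 (adjusted p = 5.5e-06), and in the embryo (log2 0.55 ± 0.14, adjusted p = 0.00703), and its near copy BIP2 fell in the embryo by 0.78 ± 0.25 (adjusted p = 0.0238). Reads may be split between BIP1 and BIP2.

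Of 21 heat shock transcription factors 18 were tested. In the seed coat 6 rose, 3 fell and 9 were not called, beside 24.8% of all tested genes higher and 23.5% lower. In the embryo 5 rose, 1 fell and 12 were not called, beside 25.4% higher and 21.4% lower. HSFA9 (AT5G54070), the seed-specific factor, had 288, 190 and 246 CPM in the mutant seed coat, against 107, 134 and 128 in the Col-0 seed coat, and 356, 259 and 341 in the mutant embryo, against 67.5, 120 and 126 in the Col-0 embryo. Genotypes did not overlap, and HSFA9 rose by 0.97 ± 0.22 in the seed coat (adjusted p = 0.00321) and by 1.61 ± 0.23 in the embryo (adjusted p = 9.7e-05). HSFA2 (AT2G26150), the factor most induced by heat in leaves, was not called in either tissue (log2 -0.42 and 0.40, adjusted p = 0.291 and 0.289). HSFA7A (AT3G51910) had 7.90, 8.65 and 9.90 CPM in the mutant seed coat, against 1.80, 0.981 and 1.78 in the Col-0 seed coat, and 11.9, 8.50 and 14.6 in the mutant embryo, against 2.40, 2.21 and 1.63 in the Col-0 embryo. It rose by 2.54 ± 0.27 in the seed coat (adjusted p = 1.0e-05) and by 2.48 ± 0.24 in the embryo (adjusted p = 5.3e-06). HSFB2A (AT5G62020) fell in the seed coat (log2 -0.82 ± 0.16, adjusted p = 0.00120), and HSFB4 (AT1G46264) fell in the embryo, where it had 0.0560, 0 and 0 CPM in the mutant against 1.82, 1.88 and 0.958 in Col-0 (adjusted p = 0.000144).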

How the data were processed

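RNA was sequenced from 12 libraries, 3 per group. Per the labels' protocols, directional poly(A) libraries with molecular identifiers were made. No label says whether duplicate reads were removed. The submitters' processing notes name bcl2fastq 2.19, fastp 0.12.4, STAR 2.7.9a and TAIR10. The deposited values are raw counts per gene from the authors, and the combined table equals the reverse-strand column of each library's own file. Reads on the opposite strand of members, summed over all of them, came to 0.159% to 0.669% of their reads. That sum is set by the abundant members, and single genes differ. HSP90.7 had 17, 34 and 28 opposite-strand reads in the mutant seed coat, beside 55, 66 and 74 counted reads. In the Col-0 seed coat it had 1, 1 and 0, beside 103, 86 and 47.

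Counts were tested with edgeR 4.0.16 (R 4.3.3) by the quasi-likelihood F test, two-sided, after filterByExpr (minimum count 10, minimum total 15) and TMM scaling, in 1 model of 4 group means, with Benjamini-Hochberg adjustment over all genes tested. SE is the size of the log2 change over the square root of F. RPKM uses RefSeq exon lengths. Sequences and coordinates are RefSeq's for TAIR10.1, read with Biopython 1.88. Libraries held 10301817 to 17619031 gene reads, with 1.95% to 7.91% of reads unmapped, and the common biological coefficient of variation was 0.166. The labels call the replicates biological, and p-values measure the spread between these samples.

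Within a genotype, seed coat and embryo libraries share numbers in the labels. The deviations of same-numbered libraries from their group means correlated at 0.40, 0.51 and 0.16 in the mutant and 0.40, 0.46 and 0.27 in Col-0. Seed coat and embryo pairs of different numbers within a genotype lay between -0.44 and 0.22. Pairs of different genotypes lay between -0.47 and 0.42, so values of this size also occurred without a shared genotype. Counts from a fit with the number as a block are therefore given, with values for only some members whose calls it changed. The block newly called 14 members for the difference of mutant effects, 6 between the tissues of Col-0 and 6 between those of the mutant. Alternatives were RLE size factors, total reads only, no filter, DESeq2 1.42.0, unstranded counts, only the groups compared, the replicate block and each library left out. The members and lists were chosen with earlier results of these data known. Any member could be named; of the other lists, the called genes with the smallest p each way in each tissue were, with HSFA9 and HSFA2.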

Additional observations from a re-analysis of the deposited data

Results flagged for a closer look

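For 8 members the effect of the mutation differed between seed coat and embryo by the test of the difference itself, given as the log2 effect in the seed coat minus that in the embryo. It was -2.05 for HSP70-3, -1.80 for HSP17.6C-CI, -1.48 for HSP17.8-CI, -1.36 for HSP70-4 and -1.34 for HSP17.6B-CI. It was -0.83 for HSP90.1, -0.67 for HSP70T-2 and -0.49 for HSP90.5. These values come from the fit without the replicate number as a block. With that block, 21 members had a lower effect in the seed coat and 1 had a higher one.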

How the results depend on the processing

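Over the members' log2 changes and counts, 3078 values under alternative settings kept their side of the threshold, 108 passed it newly, 164 no longer passed it and 13 changed sign with a call before or after. Those 13 came with total reads only. A further 66 log2 changes called under neither setting also changed sign, 46 of them with 1 library left out (HSP15.4 in the seed coat between -6.14 and 2.41, HSP21 in the seed coat between -0.11 and 0.52). The 13 changes of sign with total reads only are listed here with their values under that setting. In the seed coat against the embryo of the mutant they were HSC70-1 at -0.06, HSP90.3 at -0.40 and mtHSC70-1 at -0.39. In Col-0 they were cpHSC70-1 at -0.27, HSC70-1 at -0.42, HSP23.5 at -0.11, HSP70B at -0.41, HSP70T-2 at -0.02, HSP90.1 at -0.03 and mtHSC70-2 at -0.34. For the mutant against Col-0 they were HSP23.6 at -0.26 in the seed coat, and HSP90.5 at -0.25 and HSP90.6 at -0.30 in the embryo. Total reads only left 3 members higher and 21 lower in the mutant seed coat, 9 higher and 13 lower in the mutant embryo, 1 higher and 27 lower between the tissues of the mutant, and 3 higher and 17 lower between those of Col-0. RLE size factors moved no count past 1.5 times.

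The replicate block within genotype gave 21 lower and 1 higher mutant effects in the seed coat than in the embryo, and 13 members higher in the Col-0 seed coat than in the embryo. DESeq2 and unstranded counts also put HSP90.7 in as 1 higher effect. The unstranded counts include its opposite-strand reads, 17, 34 and 28 in the mutant seed coat and 1, 1 and 0 in the Col-0 seed coat. That call is therefore not one on the gene's own strand alone. Same-numbered libraries of different genotypes share only a number (correlations -0.19, -0.24 and -0.04 in the seed coat, -0.30, -0.47 and -0.06 in the embryo), and a replicate block there left 16 members higher in the embryo, the same count. Fitting only the groups compared left 2 higher in the mutant seed coat than in the embryo and 4 lower in the Col-0 seed coat. With both Col-0 libraries numbered 2 left out, chosen after seeing the data, 3 were lower in the mutant embryo, 4 had a lower effect in the seed coat and 2 were higher in the seed coat of the mutant.

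With each library left out in turn, the count in the mutant seed coat was 4 to 6 higher and 7 to 9 lower, and in the mutant embryo 14 to 16 higher and 3 to 7 lower. Between tissues of the mutant it was 1 to 4 higher and 12 to 19 lower, and of Col-0 6 to 9 higher and 1 to 7 lower. The mutant effect was higher in the seed coat than in the embryo for 0 to 1 and lower for 4 to 8. HSP15.4, HSP18.2-CI and HSP70T-1 rest on few reads. Counts were also low for HSP21 in the seed coat, with 14, 44 and 50 reads in the mutant and 36, 55 and 19 in Col-0. HSP90.7 had 43 to 137 reads and HSP70-2 had 21 to 158 over the 12 libraries. The cause of these changes was not tested.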
